A study of Mus musculus with 12 samples.

Results

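The expression of 9 cytokine genes that B cells can use was followed, namely Il10, Il6, Tnf, Lta, Ltb, Il12a, Tgfb1, Ebi3 and Spp1. Members were taken by symbol and are 9 of the 28019 entries of the table, all 9 of which were among the 15853 genes and loci above 1 FPKM in at least 3 libraries that were tested. FPKM are fragments per kilobase of transcript and megafragment mapped, and allow levels to be compared between genes. The RNA came from splenic B cells of BALB/c mice of post-natal day 42-49, which every group shared. The cells had been kept for 24 h in RPMI-1640 with 10% fetal bovine serum and penicillin/streptomycin, either alone (control) or together with a class A, class B or class C CpG ODN (oligodeoxynucleotide) at 1 µM. These short DNAs with CpG dinucleotides are synthetic ligands of Toll-like receptor TLR9, and the series set the 3 classes side by side. In class A a palindrome with phosphodiester bonds sits between poly-G tails with phosphorothioate bonds, class B has no palindrome and a phosphorothioate backbone throughout, and class C combines such a backbone with a palindrome. Each of the 4 groups held 3 libraries, and the sources used here do not say how the B cells were isolated or whether the libraries came from separate animals or cultures. P-values therefore measure the spread between libraries, which may be technical.

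B cells make antibody but also secrete cytokines that act on neighbouring cells. Interleukin-10, the product of Il10, restrains inflammation and is the defining cytokine of regulatory B cells, in which TLR9 ligands are known inducers. Il12a and Ebi3 encode the p35 and EBI3 subunits that together form interleukin-35, and Tgfb1 encodes a latent growth factor that limits lymphocyte responses. Il6 and Tnf encode inflammatory cytokines, Lta and Ltb the lymphotoxin subunits that organise lymphoid tissue, and Spp1 the secreted phosphoprotein osteopontin.

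Tnf, Lta and Ltb are neighbours. In the deposited coordinates of mouse build mm10, Ltb (gene 16994, plus strand) lay at chr17:35194507-35196305, Tnf (21926, minus strand) at chr17:35199367-35202007 and Lta (16992, minus strand) at chr17:35203165-35207198. The 3061 bases between Ltb and Tnf and the 1157 bases between Tnf and Lta place the trio within 12692 bases. Ebi3 (50498, chr17:55952623-55957022, plus strand) lies elsewhere on that chromosome. The other genes, all on the plus strand, are Il10 (16153, chr1:131019845-131024970), Il6 (16193, chr5:30013114-30019975), Spp1 (20750, chr5:104435111-104441053), Il12a (16159, chr3:68690644-68698550) and Tgfb1 (21803, chr7:25687002-25705077).

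The 250 bases before the start of 4 genes are printed 5′ to 3′ on the gene's own strand, from RefSeq for build GRCm38.p6. Tnf, Lta and Ltb are shown because these neighbours moved in different directions, and Il6 because it shares a strict kappaB match with Ltb while moving the opposite way. Capitals mark matches to the kappaB motifs of NF-kappaB, either GGG and TTTCC around 2 free bases (strict) or GGGA and CC around 4 free bases (loose), which can overlap each other, and to the TATA box TATAAA, each on either strand.
Il6 (chr5:30012864-30013113, plus strand): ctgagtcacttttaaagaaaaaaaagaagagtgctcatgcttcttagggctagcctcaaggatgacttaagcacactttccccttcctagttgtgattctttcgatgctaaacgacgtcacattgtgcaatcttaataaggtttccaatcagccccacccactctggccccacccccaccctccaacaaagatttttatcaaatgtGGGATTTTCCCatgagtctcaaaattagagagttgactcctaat
Ltb (chr17:35194257-35194506, plus strand): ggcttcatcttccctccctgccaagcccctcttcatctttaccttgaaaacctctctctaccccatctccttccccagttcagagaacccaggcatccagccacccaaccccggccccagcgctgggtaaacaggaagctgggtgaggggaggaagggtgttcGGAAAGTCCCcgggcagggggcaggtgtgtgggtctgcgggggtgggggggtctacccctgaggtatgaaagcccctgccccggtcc
Tnf (chr17:35202008-35202257, minus strand): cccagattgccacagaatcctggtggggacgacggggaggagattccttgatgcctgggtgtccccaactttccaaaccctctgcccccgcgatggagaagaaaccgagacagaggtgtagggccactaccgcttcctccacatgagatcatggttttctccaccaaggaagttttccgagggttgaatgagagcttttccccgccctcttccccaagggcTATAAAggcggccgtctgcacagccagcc
Lta (chr17:35205352-35205601, minus strand): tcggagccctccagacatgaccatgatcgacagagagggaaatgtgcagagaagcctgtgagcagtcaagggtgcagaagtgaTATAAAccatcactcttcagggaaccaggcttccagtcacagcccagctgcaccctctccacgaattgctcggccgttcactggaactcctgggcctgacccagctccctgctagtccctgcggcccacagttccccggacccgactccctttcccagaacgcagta
The RefSeq start of Lta used for this window lies inside the span that the deposited table gives the gene. Of the 9 genes 8 had an entry, some with more than 1 start, and matches describe letters in these windows, not occupied sites. The strict kappaB motif was found before Il6, 35 to 44 bases from the start, and before Ltb, 78 to 87 bases from the start, and in 1.41% of 32851 promoters of this length. The loose kappaB motif occurred before 5 of the 8 genes (Il6, Ltb, Tgfb1, Ebi3 and a second start of Il12a) and in 17.6% of all promoters. TATAAA lay 24 to 29 bases before the start of Tnf, but 162 to 167 before that of Lta and 206 to 211 before the first start of Spp1. It occurred in 12.4% of all promoters. Il6 alone among the 8 held the AP-1 motif TGANTCA (6.75% of all promoters) and the cAMP response core TGACG (17.8%). It shared the C/EBP motif TTGCNNAA (9.56%) with a second start of Spp1, which lies inside the deposited span of that gene. The first start of Spp1 held the interferon response motif, a pair of GAAA blocks around 2 free bases (2.98%). The GC box GGGCGG (32.7%) was found before Tgfb1, Tnf and the second start of Il12a.

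By the spacing of low values, depth was about 14.1 to 16.95 megafragments in the control libraries and 21.1 to 25.35 in the treated ones. Control libraries listed 15491 to 18591 genes and loci at 1 FPKM or more and treated libraries 10761 to 11562. Loci without a gene name had a median of 1.73 FPKM in the control, 0.34 in CpG-A, 0.07 in CpG-B and 0.05 in CpG-C. The control means of Il10 (0.81) and Il6 (0.10) lay below that control median. The B cell markers Cd79a and Ms4a1 had group means of 1109 to 1620 FPKM and 379 to 537 FPKM. Markers of other cells summed low by comparison, with at most 18.92 FPKM over 14 monocyte and macrophage genes, 7.77 over 9 T cell genes and 116.9 over 9 dendritic cell genes, of which Ccr7 alone, a receptor B cells also carry, made 73.9 to 104 in the group means. Library 3 of CpG-B and library 3 of CpG-C stood apart from the other 2 of their groups in the same direction. Across genes, which are not independent replicates, their deviations from the group means correlated at 0.79 with each other. Each correlated at -0.70 to -0.75 with libraries 1 and 2 of the opposite group. Deviations cancel out within a group, so these negative values are not separate evidence. Where leaving out library 3 of CpG-B or CpG-C ended a call or moved a called change by over 1.5 times, the value without it is given too.

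Most of the 9 cytokine genes differed from the control under every class, but not the same ones or the same way. In CpG-A 7 rose, Ltb fell and Tgfb1 did not pass the test. In CpG-B 5 rose (Il10, Il6, Il12a, Ebi3 and Spp1), Lta and Ltb fell, and Tnf and Tgfb1 did not pass. In CpG-C 6 rose, those of CpG-B and Tnf, while Lta and Ltb fell and Tgfb1 did not pass. Il10 and Il6 met the filter of 1 FPKM only through treated libraries, so genes this low in the control could enter the test only by being higher elsewhere. The test was limma's trend method on log2(FPKM + 1) over all 12 libraries, with Benjamini-Hochberg adjustment over all 15853 features and a call at an adjusted p under 0.05, and log2 changes on this scale understate those of low genes. By that rule 23.6% of all features were called higher and 42.1% lower with CpG-A, 25.7% and 51.8% with CpG-B, and 26.1% and 51.3% with CpG-C, so a change in itself was common here. Among the known genes alone, the calls higher and lower came to 32.8% and 22.1%, 34.8% and 35.3%, and 35.7% and 34.5%. The median log2 change of the 9 genes was 1.21, 0.88 and 0.49 with the 3 classes, that of all features -0.16, -0.31 and -0.31, and that of the 10860 known genes among them 0.049, 0.002 and 0.015. The 9 genes were chosen with earlier results of these data known, so neither their calls nor their medians are an unbiased contrast with all features. The libraries did not overlap between treated and control for 8, 7 and 7 of the 9 genes, against 76.4%, 80.7% and 80.2% of all features without overlap and 65.8%, 77.5% and 77.4% called in either direction. An exact permutation test of 3 against 3 libraries cannot go below 0.10, the value it gave for each gene without overlap. In RNA of whole cultures, a change in the number of expressing cells and in the RNA per cell cannot be told apart.

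**Figure D1:**
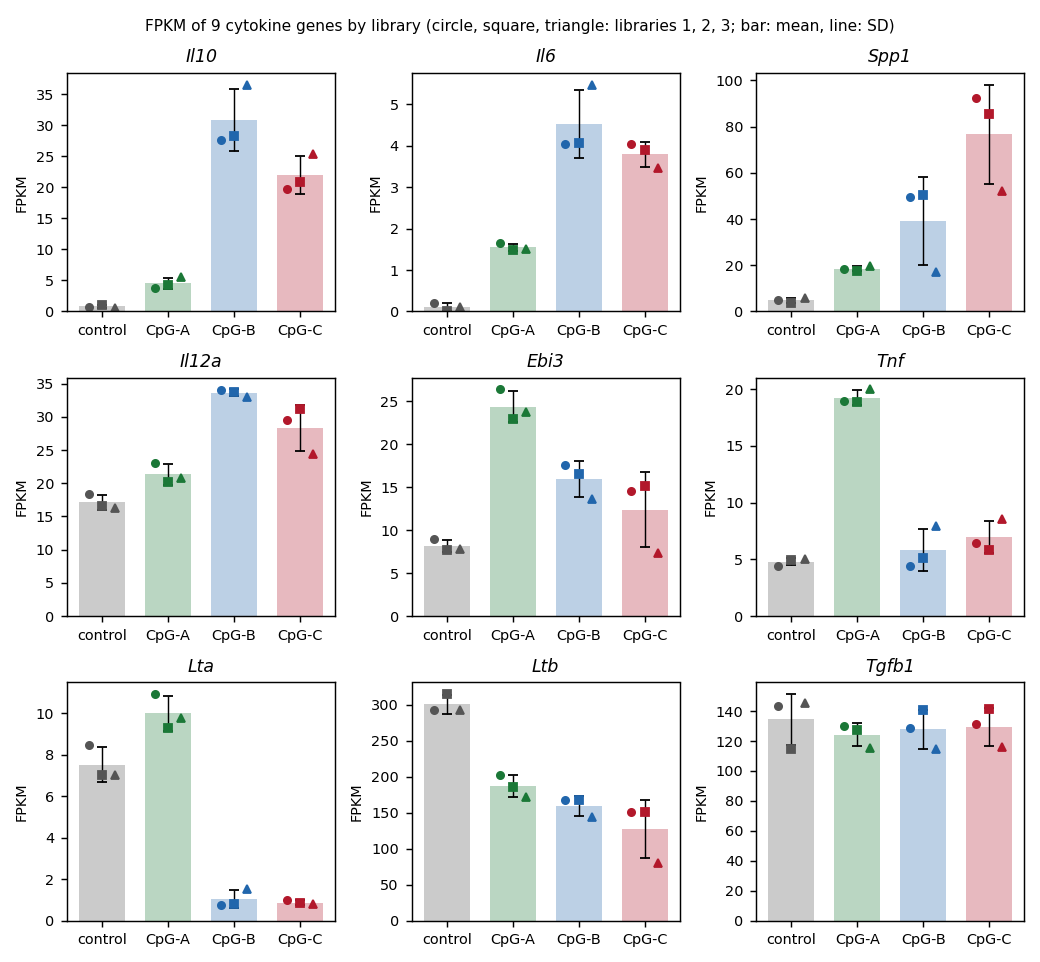
FPKM of the 9 cytokine genes in each of the 12 libraries, with circles, squares and triangles for libraries 1, 2 and 3, bars for the group mean and lines for the SD over 3 libraries. Il10 reaches 30.8 FPKM with CpG-B from 0.81 in the control, Tnf stands highest with CpG-A at 19.2, and Tgfb1 keeps its bars between 124 and 134 FPKM.

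Il10 rose with every class, least with CpG-A and most with CpG-B. It was listed at 0.74, 1.11 and 0.58 FPKM in the control libraries, 3.77, 4.28 and 5.49 with CpG-A, 27.63, 28.22 and 36.57 with CpG-B, and 19.8, 20.81 and 25.44 with CpG-C. None of the 4 groups overlapped, and library 3 was the highest in each treated group. The mean was 5.57 times the control for CpG-A, 38.0 times for CpG-B and 27.2 times for CpG-C. On the log2 scale these changes were 1.61 ± 0.16 (SE, adjusted p = 9.0e-06), 4.13 ± 0.16 (adjusted p = 1.73e-09) and 3.67 ± 0.16 (adjusted p = 4.05e-09). Between classes, CpG-B and CpG-C exceeded CpG-A by 2.53 (adjusted p = 3.93e-07) and 2.07 (adjusted p = 3.01e-06).

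Il6, which promotes plasma cell differentiation and the acute phase response, also rose with every class and least with CpG-A, at a lower level. The CpG-B and CpG-C libraries of Il6 overlapped. Its control values were 0.2, 0 and 0.11 FPKM, which at the estimated depth come to about 3.1, 0 and 1.9 fragments. With CpG-A it was listed at 1.65, 1.49 and 1.51 FPKM, with CpG-B at 4.03, 4.06 and 5.47, and with CpG-C at 4.03, 3.89 and 3.45. Every treated library lay above every control library, and every CpG-B and CpG-C library above every CpG-A library. The log2 changes were 1.21 ± 0.12 (adjusted p = 9.74e-06), 2.32 ± 0.12 (adjusted p = 1.74e-08) and 2.12 ± 0.12 (adjusted p = 3.64e-08). Because the control is so close to 0, their size rests on the pseudocount, and with 0.1 in place of 1 they came to 3.16, 4.63 and 4.39. CpG-B exceeded CpG-A by 1.10 (adjusted p = 3.42e-05) and CpG-C did so by 0.91 (adjusted p = 0.000185).

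Spp1 rose with every class and was highest with CpG-C. It was listed at 4.95, 3.73 and 5.74 FPKM in the control, 18.3, 17.39 and 19.57 with CpG-A, 49.7, 50.47 and 17.12 with CpG-B, and 92.52, 85.29 and 52.25 with CpG-C. All treated libraries stood above the control, whereas CpG-B library 3 lay below all 3 CpG-A libraries and CpG-C library 3 was well below its group. The log2 changes against control were 1.76 ± 0.34 (adjusted p = 0.000663), 2.65 ± 0.34 (adjusted p = 1.55e-05) and 3.72 ± 0.34 (adjusted p = 1.21e-06). CpG-C exceeded CpG-A by 1.96 (adjusted p = 0.00124). CpG-B did not pass against CpG-A, at 0.90 (adjusted p = 0.0508), but did so at 1.40 (adjusted p = 0.000604) without CpG-B library 3, 1 of 9 alternatives that called it.

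Il12a and Ebi3 encode the chains of interleukin-35, and Il12a also pairs with the p40 chain of Il12b in interleukin-12 while Ebi3 pairs with the p28 chain of Il27 in interleukin-27. Both were called higher with every class, Il12a being highest with CpG-B and Ebi3 with CpG-A. Il12a was listed at 18.39, 16.65 and 16.34 FPKM in the control, 23.09, 20.13 and 20.76 with CpG-A, 34.05, 33.79 and 33.01 with CpG-B, and 29.45, 31.18 and 24.45 with CpG-C. All 4 groups of Il12a were apart. Its log2 changes of 0.30 ± 0.09 (adjusted p = 0.0133) for CpG-A, 0.93 ± 0.09 (adjusted p = 2.06e-06) for CpG-B and 0.69 ± 0.09 (adjusted p = 2.26e-05) for CpG-C stayed below 1. The CpG-A call was lost without the first CpG-A library (0.24, adjusted p = 0.0624) and when libraries were rescaled by median of ratios (0.19, adjusted p = 0.0974), by upper quartile (0.18, adjusted p = 0.107) or to TPM (0.17, adjusted p = 0.184).

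Ebi3 was listed at 8.93, 7.68 and 7.84 FPKM in the control, 26.41, 22.94 and 23.77 with CpG-A, 17.57, 16.6 and 13.58 with CpG-B, and 14.58, 15.17 and 7.33 with CpG-C. CpG-A and CpG-B libraries were apart from the control and from each other, but CpG-C library 3 fell below all 3 controls. The log2 change was 1.47 ± 0.21 with CpG-A (adjusted p = 6.38e-05) and 0.88 ± 0.21 with CpG-B (adjusted p = 0.00185). With CpG-C it was 0.49 ± 0.21 (adjusted p = 0.0471), a call lost under 17 of the alternatives tried, and it came to 0.80 (adjusted p = 5.11e-05) without CpG-C library 3. Against CpG-A, Ebi3 was lower with CpG-B (-0.59, adjusted p = 0.0369), a call lost under 9 alternatives, the omission of each CpG-A or CpG-B library among them (-0.66 to -0.49, adjusted p = 0.0502 to 0.11), and lower with CpG-C (-0.98, adjusted p = 0.00362, and -0.67, adjusted p = 0.00103, without CpG-C library 3). The CpG-B call was kept without library 3 of both CpG-B and CpG-C (-0.49, adjusted p = 0.000688). Il12a therefore stood at 2.10 ± 0.06 times the FPKM of Ebi3 in the control, 0.88 ± 0.002 in CpG-A, 2.14 ± 0.26 in CpG-B and 2.47 ± 0.75 in CpG-C (SD, n = 3). The other chains were scarcely measured, with Il12b at 0.56 FPKM or less in every library, Il23a at 0.22 or less and Il27 at 0.15 or less.

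Tnf rose most with CpG-A, passed the test narrowly with CpG-C and did not pass with CpG-B. It was listed at 4.45, 4.95 and 5 FPKM in the control, 18.93, 18.82 and 19.99 with CpG-A, 4.46, 5.14 and 7.92 with CpG-B, and 6.48, 5.86 and 8.55 with CpG-C. The CpG-A libraries were above all others, the CpG-B libraries overlapped the control, and the CpG-C libraries lay just above it. With CpG-A the mean was 4.01 times the control and the log2 change 1.80 ± 0.17 (adjusted p = 6.69e-06). It was 0.21 ± 0.17 (adjusted p = 0.27) with CpG-B, and -0.0011 without CpG-B library 3. With CpG-C it was 0.44 ± 0.17 (adjusted p = 0.0279), a call lost without CpG-C library 3 (0.31, adjusted p = 0.115), without the first control library (0.40, adjusted p = 0.0798) or without the second (0.46, adjusted p = 0.0531), and under TPM scaling (0.25, adjusted p = 0.169). Without library 3 of both CpG-B and CpG-C the same 0.31 was called (adjusted p = 0.00393). Against CpG-A, Tnf was lower in CpG-B (-1.60, adjusted p = 2.44e-05) and in CpG-C (-1.36, adjusted p = 0.000108). For Tnf in CpG-B against control, the authors' deposited table gives a log2 ratio of 0.28 with q = 0.000171.

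Lta, whose product forms the secreted lymphotoxin homotrimer and binds Ltb in the membrane form, fell steeply with CpG-B and CpG-C. It was listed at 8.49, 7.01 and 7.04 FPKM in the control, 10.94, 9.29 and 9.77 with CpG-A, 0.76, 0.83 and 1.53 with CpG-B, and 1.01, 0.84 and 0.79 with CpG-C. The last 2 groups overlapped each other and lay far below the other 2. The mean fell 7.22-fold with CpG-B (log2 change -2.08 ± 0.14, adjusted p = 1.27e-07) and 8.54-fold with CpG-C (-2.18 ± 0.14, adjusted p = 9.21e-08). With CpG-A the change was 0.37 ± 0.14 (adjusted p = 0.0334), a call that ended under 9 of the alternatives, the omission of control library 2 (adjusted p = 0.0971) or 3 (adjusted p = 0.0978) and of CpG-A library 1 (adjusted p = 0.116) or 3 (adjusted p = 0.0624) among them. The authors' deposited table gives a log2 ratio of 0.03 for this change with q = 0.0689. Against CpG-A, Lta was lower in CpG-B (-2.45, adjusted p = 2.08e-07) and in CpG-C (-2.55, adjusted p = 1.84e-07).

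Ltb, which anchors the lymphotoxin heterotrimer to the membrane, was the most abundant of the 9 transcripts in the control and fell with every class. It was listed at 293.49, 315.28 and 292.83 FPKM in the control, 202.5, 185.96 and 172.36 with CpG-A, 168.15, 167.32 and 143.93 with CpG-B, and 150.8, 150.51 and 80.9 with CpG-C. Control libraries stood above all treated libraries, and CpG-C library 3 was the lowest. The log2 changes were -0.68 ± 0.19 (adjusted p = 0.00724), -0.91 ± 0.19 (adjusted p = 0.00084) and -1.29 ± 0.19 (adjusted p = 5.02e-05). CpG-B did not pass against CpG-A (-0.23, adjusted p = 0.327) unless CpG-C library 3 was left out of the fit (adjusted p = 0.0389) or libraries were weighted (-0.17, adjusted p = 0.0286). CpG-C did (-0.60, adjusted p = 0.0277), at -0.31 (adjusted p = 0.0223) without CpG-C library 3, but not without CpG-A library 1 (adjusted p = 0.0923) or 2 (adjusted p = 0.0693) and under 4 other settings.

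The 3 neighbours thus did not keep their proportions. The ratio of Ltb to Lta in FPKM was 40.4 ± 5.3 in the control, 18.7 ± 1.2 in CpG-A, 172 ± 68.5 in CpG-B and 144 ± 38.7 in CpG-C, and that of Tnf to Lta was 0.65 ± 0.11, 1.93 ± 0.18, 5.75 ± 0.52 and 8.07 ± 2.40 (SD, n = 3). The sources used here do not say whether strand was used in counting, but the deposited spans of the trio do not overlap. The summed monocyte and macrophage markers were 14.77 to 16.5 FPKM in the control, 18.06 to 18.92 in CpG-A, 6.54 to 7.69 in CpG-B and 7.45 to 10.16 in CpG-C. Adgre1, the F4/80 antigen, led this list in the control and CpG-A, with group means of 6.51, 11.8, 0.63 and 1.2 FPKM, and stood high and low in the same groups as Lta. Cd68 (3.59, 5.13, 3.67 and 4.91) did not follow it, and Itgam (0.08, 0.19, 2.05 and 1.99) was higher in CpG-B and CpG-C. C1qa (2.08, 0.30, 0.04 and 0.05) and Mrc1 (1.39, 0.39, 0.63 and 0.59) were highest in the control and lower in every treated group. Lyz2 did not exceed a mean of 0.34, Vsig4 0.06 and Marco 0.02. T cell markers summed to 4.96 to 7.77, 2.95 to 4.12, 0.62 to 1.5 and 0.47 to 2.1 FPKM in the same order. No T cell marker exceeded a control mean of 1.46 FPKM, below the control median of 1.73 of loci without a gene name. That median also fell with every class, to 0.34, 0.07 and 0.05. The part of other cells, or of this low signal, in the results was not tested.

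**Figure D2:**
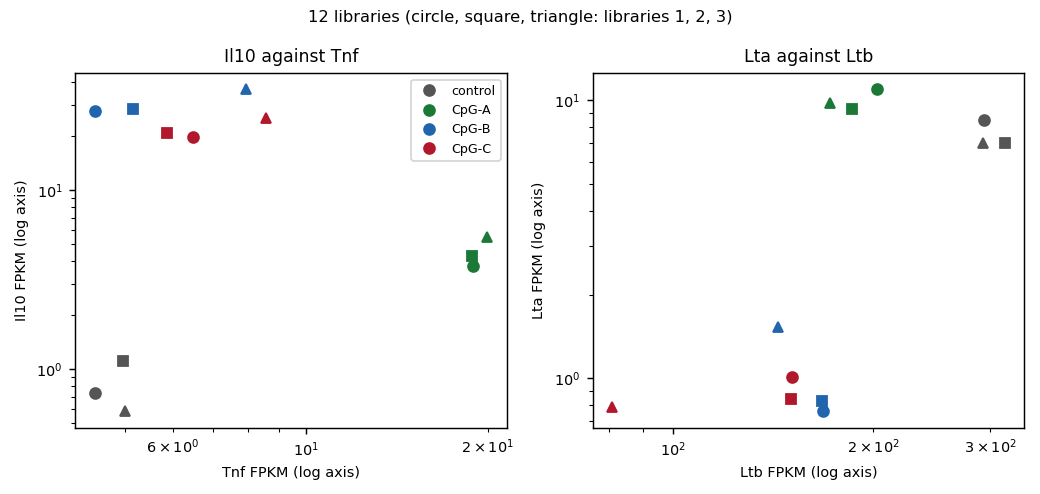
FPKM of Il10 against Tnf and of Lta against Ltb in the 12 libraries on log axes, 1 point per library with the colour for the group and the symbol for the library number. CpG-A libraries lie at high Tnf (18.82 to 19.99) with Il10 of 3.77 to 5.49, CpG-B and CpG-C libraries at high Il10 (19.8 to 36.57) and Lta of 1.53 or less.

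Tgfb1 was the only one of the 9 that passed the test in none of the 6 comparisons. It was listed at 143.21, 114.81 and 145.34 FPKM in the control, 129.99, 127.44 and 115.3 with CpG-A, 128.76, 140.49 and 114.56 with CpG-B, and 131.22, 141.31 and 115.89 with CpG-C. All 4 groups overlapped, and the 12 values ran from 114.56 to 145.34 FPKM. Its log2 changes were -0.11 (95% interval -0.35 to 0.14), -0.07 (-0.31 to 0.18) and -0.05 (-0.29 to 0.19) with CpG-A, CpG-B and CpG-C, with adjusted p = 0.42, 0.59 and 0.689. Rescaling to TPM gave -0.37 (adjusted p = 0.0219) with CpG-B and -0.30 (adjusted p = 0.0495) with CpG-C, and weighting libraries gave -0.17 (adjusted p = 0.0231) with CpG-A. In that TPM scaling the median of all features also moved, to -0.61 and -0.57. The authors' deposited table gives Tgfb1 log2 ratios of -0.13 (q = 1.53e-15), -0.08 (q = 1.94e-08) and -0.07 (q = 2.12e-06) against the control. Against CpG-A it gives 0.05 (q = 0.000422) for CpG-B and 0.06 (q = 6.33e-06) for CpG-C, and for CpG-C against CpG-B q = 0.415.

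**Figure D3:**
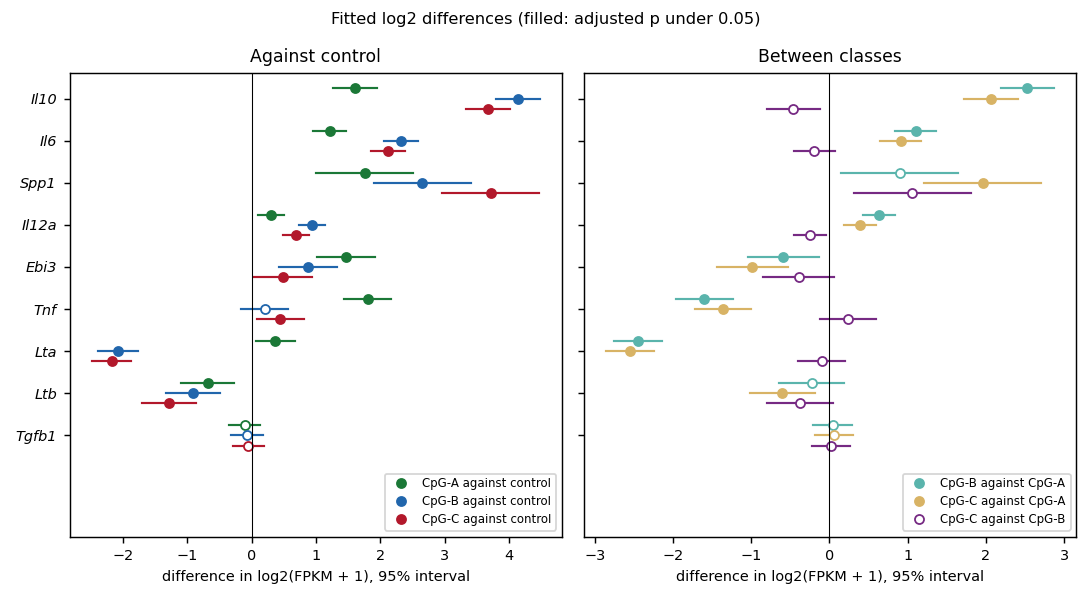
Fitted differences in log2(FPKM + 1) with 95% intervals for the 9 genes, against the control on the left and between classes on the right, with filled points at an adjusted p under 0.05. Against the control Lta lies at 0.37, -2.08 and -2.18 for the 3 classes in turn, and every point of CpG-C against CpG-B is open.

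Between the classes, CpG-A stood apart from the other 2 in most of the 9 genes. Against CpG-A, CpG-B was higher for Il10, Il6 and Il12a, lower for Tnf, Lta and Ebi3, and did not pass for Ltb, Tgfb1 and Spp1, where 13.1% of all features were called higher and 31.5% lower. CpG-C was higher than CpG-A for those 3 genes and Spp1 and lower for those 3 and Ltb, with only Tgfb1 not passing, against 11.4% and 29.3% of all features. Libraries did not overlap for 7 and 8 of the 9, against 69.0% and 65.7% of all features without overlap and 44.6% and 40.7% called. Il12a exceeded CpG-A by 0.63 (adjusted p = 0.0003) with CpG-B and by 0.39 (adjusted p = 0.00754) with CpG-C. Il10 stood at 0.17 ± 0.05 times the FPKM of Tnf in the control, 0.23 ± 0.04 in CpG-A, 5.43 ± 0.79 in CpG-B and 3.19 ± 0.31 in CpG-C (SD, n = 3). Of the summed FPKM of the 9 genes, Ltb made 62.9% in the control, 45.5% in CpG-A, 38.2% in CpG-B and 30.7% in CpG-C, and Il10 made 0.17%, 1.11%, 7.48% and 5.65%. All of these comparisons share the libraries of a group, so their results are not independent.

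Class C holds a palindrome that class B lacks, but the sources used here give no ODN sequences, so other differences between these ODNs are not known. CpG-B and CpG-C were not told apart for any of the 9 genes. None passed in limma, 3 had an unadjusted p under 0.05 (Il10, Il12a and Spp1, whose libraries did not overlap, as in 12.4% of all features), and 0.183% of all features were called (0.114% higher, 0.0694% lower). The log2 difference of CpG-C from CpG-B was -0.46 for Il10 (95% interval -0.80 to -0.12, adjusted p = 0.573), -0.24 for Il12a (-0.45 to -0.04, adjusted p = 0.705) and 1.06 for Spp1 (0.31 to 1.81, adjusted p = 0.543). The intervals of the rest all held 0, at -0.79 to 0.04 for Ltb, -0.84 to 0.06 for Ebi3, -0.46 to 0.07 for Il6, -0.13 to 0.60 for Tnf, -0.40 to 0.20 for Lta and -0.23 to 0.26 for Tgfb1, and do not show that the classes act alike. Without CpG-C library 3 the difference was -0.081 for Ltb and -0.084 for Ebi3, from -0.38 and -0.39 with it, and without CpG-B library 3 it was 0.56 for Spp1. Compared by library number, which was taken to pair these groups, CpG-C minus CpG-B had 1 sign in all 3 pairs for 7 of the 9 genes, being lower for Il10, Il12a, Ltb and Ebi3 and higher for Spp1, Tnf and Tgfb1. For Tgfb1 the pairs differed by only 0.82 to 2.46 FPKM. How many of all features had 1 sign in all 3 pairs was not counted, so the 7 cannot be set against a background. With the pairs as a block in a fit of these 2 groups alone, a fit chosen after seeing the data, the adjusted p came to 0.0906 for Il10, 0.155 for Spp1 and 0.244 for Il12a, and no gene was called. Where libraries were weighted by their own spread, Il10 (-0.45, adjusted p = 0.000584) and Il12a (-0.16, adjusted p = 0.0257) were called lower and Tnf (0.26, adjusted p = 0.0184) and Spp1 (0.82, adjusted p = 0.000363) higher. The same weights called 929 higher and 1158 lower of all 15853 features, far more than the main fit. Without library 3 of both groups Spp1 alone of the 9 was called, at 0.81 (adjusted p = 0.0406), with 60 higher and 27 lower among all features. The authors' deposited table gives 6 of the 9 with q under 0.05 for this comparison and the same signs. The share of all features under that q was not counted.

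**Figure D4:**
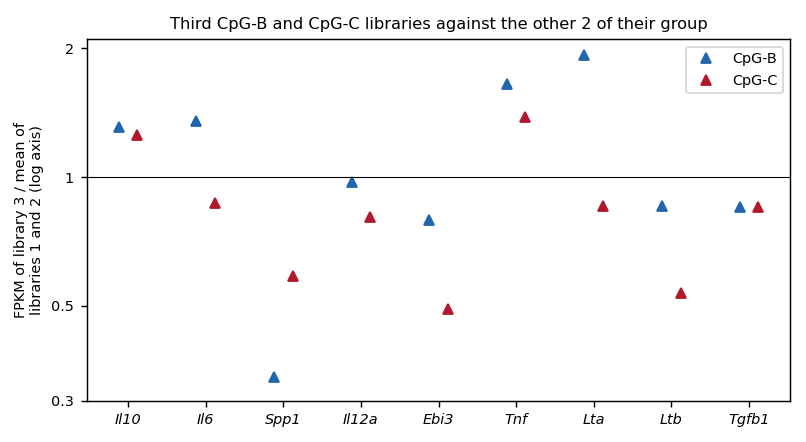
FPKM of library 3 of CpG-B and library 3 of CpG-C divided by the mean of the other 2 libraries of the group, on a log axis, for the 9 genes. Spp1 lies lowest in CpG-B at 0.34 and Ebi3 in CpG-C at 0.49, while Il10 and Tnf lie above 1 in both groups.

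Libraries 3 of CpG-B and CpG-C lay on the same side of both other libraries of their groups for 7 of the 9 genes. Their deviations correlated at 0.79 across known genes, so this was not particular to the 9. The share of all features with such a shared side was not counted. Il10 (1.31 and 1.25 times the mean of the other 2) and Tnf (1.65 and 1.39 times) were above both other libraries in each group. Ltb (0.86 and 0.54), Il12a (0.97 and 0.81), Tgfb1 (0.85 and 0.85), Ebi3 (0.79 and 0.49) and Spp1 (0.34 and 0.59) were below both. Il6 (1.35 and 0.87) and Lta (1.93 and 0.85) were above in CpG-B and below in CpG-C. What set these libraries apart was not tested.

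Of 17 subunit partners and processing factors 7 were high enough to be tested, and with CpG-A, CpG-B and CpG-C 1, 1 and 1 of them rose while 4, 5 and 6 fell, at median log2 changes of -0.26, -0.50 and -0.43. The gene that rose was Lrrc32, which encodes the GARP protein that tethers latent TGF-β to the cell surface. Lrrc32 met the filter of 1 FPKM only through treated libraries, so it could enter the test only by being higher there. It went from 0.17 ± 0.05 FPKM in the control to 1.67 ± 0.25, 7.75 ± 0.35 and 7.92 ± 1.27 (SD, n = 3), at log2 changes of 1.19 (adjusted p = 8.48e-06), 2.91 (adjusted p = 2.39e-09) and 2.93 (adjusted p = 2.21e-09), while Tgfb1 itself did not pass. Adam17, the protease that sheds membrane TNF, fell from 35.6 ± 1.8 FPKM to 29.6 ± 0.4, 23.3 ± 2.2 and 26.2 ± 2.3, with adjusted p = 0.02, 4.21e-05 and 0.000596. Clcf1, a cytokine of the interleukin-6 family, fell from 95.5 ± 5.9 to 52.0 ± 2.3, 21.3 ± 1.4 and 20.8 ± 4.9 FPKM, with adjusted p = 0.000155, 1.07e-07 and 8.89e-08.

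Of 19 receptor genes 14 were tested, and 3, 6 and 6 rose while 6, 6 and 6 fell with the 3 classes, at median log2 changes of -0.30, 0.07 and -0.05. The receptor chains of interleukin-10 moved oppositely. Il10ra rose from 37.8 ± 3.9 FPKM to 52.7 ± 1.4, 64.5 ± 5.6 and 62.8 ± 13.4 (adjusted p = 0.00961, 0.000297 and 0.000548), and Il10rb fell from 58.4 ± 0.9 to 43.2 ± 2.0, 28.1 ± 2.5 and 26.1 ± 1.6 (adjusted p = 0.000356, 2.74e-07 and 1.37e-07). Il6ra, the ligand-binding chain for interleukin-6, fell from 6.37 ± 0.62 to 3.89 ± 0.27, 1.81 ± 0.64 and 2.07 ± 0.15 FPKM (adjusted p = 0.00398, 3.08e-06 and 7.29e-06), whereas its signalling chain Il6st did not pass (adjusted p = 0.761, 0.819 and 0.722). Il27ra fell with CpG-B (6.08 ± 0.51) and CpG-C (7.62 ± 1.15) from 21.4 ± 2.4 FPKM (adjusted p = 1.22e-07 and 4.65e-07) and did not pass with CpG-A. Tnfrsf1b, the TNF receptor of lymphocytes, rose with CpG-B (14.3 ± 1.0) and CpG-C (13.7 ± 1.4) from 8.54 ± 0.57 FPKM (adjusted p = 1.9e-05 and 4.19e-05) and did not pass with CpG-A. Tnfrsf1a and the lymphotoxin receptor Ltbr stayed at or below 0.28 FPKM in every library. Tgfbr1 fell from 15.6 ± 0.2 to 8.89 ± 0.39, 5.72 ± 1.36 and 6.19 ± 1.10 FPKM (adjusted p = 0.000728, 4.61e-06 and 9.12e-06). Cd44, a receptor for osteopontin, rose from 17.3 ± 1.0 to 52.2 ± 2.4, 33.9 ± 4.0 and 41.7 ± 6.2 FPKM (adjusted p = 1.6e-06, 9.78e-06 and 1.3e-06).

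**Figure D5:**
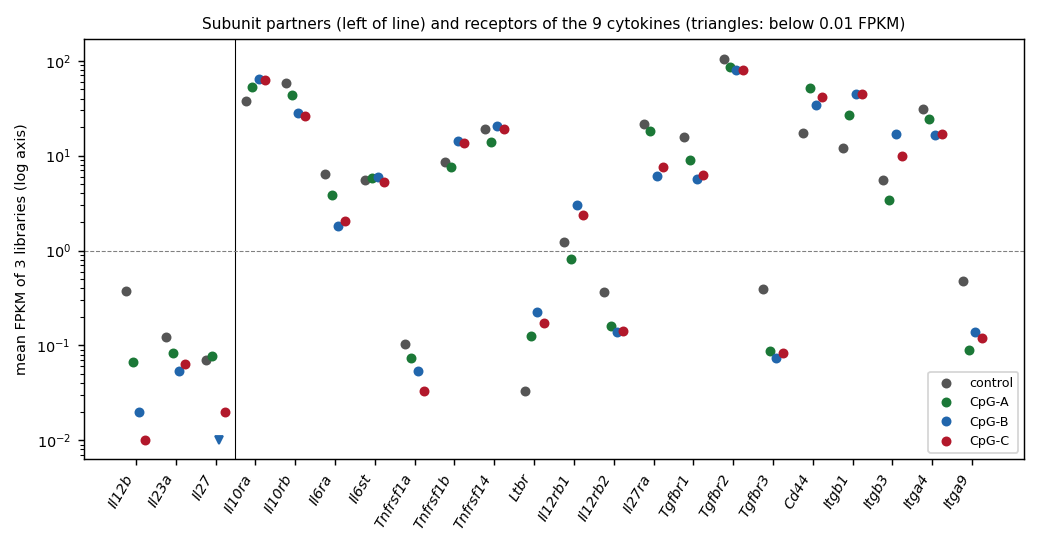
Mean FPKM over 3 libraries of 3 subunit partners (left of the vertical line) and of the receptors of the 9 cytokines in each group, on a log axis with a dashed line at 1 FPKM and triangles for means below 0.01. Il10ra rises to 64.5 while Il10rb falls to 26.1, and the partner chains all lie below 0.4 FPKM.

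Regulators linked to Il10, which were transcription factors apart from the kinase Blk, were all 15 tested. With CpG-A, CpG-B and CpG-C 7, 6 and 6 rose while 3, 7 and 6 fell, at median log2 changes of 0.28, -0.24 and -0.02. Prdm1 (Blimp-1), a regulator of plasma cell differentiation, rose from 2.11 ± 0.30 FPKM to 4.95 ± 0.29, 19.0 ± 0.7 and 17.0 ± 2.4 (SD, n = 3, adjusted p = 2.07e-05, 2.64e-09 and 4.05e-09). Batf, an AP-1 family factor, rose from 12.3 ± 1.3 to 59.9 ± 4.2, 127 ± 28.9 and 133 ± 21.8 FPKM (adjusted p = 1.02e-06, 8.43e-09 and 6.88e-09). Stat3, which relays interleukin-6 and interleukin-10 signals, rose from 43.6 ± 2.6 to 51.9 ± 1.3, 75.8 ± 7.8 and 83.2 ± 3.4 FPKM (adjusted p = 0.0188, 2.87e-06 and 9.32e-07). Blk, a B cell Src-family kinase, fell from 247 ± 13.4 to 176 ± 10.9, 79.3 ± 7.7 and 90.5 ± 11.9 FPKM (adjusted p = 0.00124, 8.98e-08 and 2.23e-07).

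Of 18 subunits of NF-kappaB and AP-1 and IkappaB proteins 17 were tested, of which 4, 4 and 5 rose and 5, 9 and 8 fell, at medians of -0.01, -0.49 and -0.38. Nfkbia, the inhibitor IkappaBα, did not pass with CpG-A (102 ± 4.3 FPKM, adjusted p = 0.895) and rose from 103 ± 7.3 to 240 ± 48.3 with CpG-B (adjusted p = 2.67e-06) and 216 ± 22.5 with CpG-C (adjusted p = 6.69e-06). Nfkb1, which encodes the p50 subunit, rose with CpG-A (143 ± 1.5, adjusted p = 0.000367) from 109 ± 6.7 FPKM and fell with CpG-B (68.3 ± 3.4, adjusted p = 3.36e-06) and CpG-C (81.2 ± 5.1, adjusted p = 0.000159). Jund fell with all 3 classes, from 236 ± 27.9 FPKM to 134 ± 15.9, 134 ± 9.0 and 126 ± 12.01 (adjusted p = 5.87e-05, 2.91e-05 and 1.14e-05).

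Factors that destabilise or protect cytokine mRNA were measured for 12 of 13 listed symbols, and 4, 4 and 5 rose while 4, 6 and 6 fell, at medians of -0.04, -0.27 and -0.12. The symbol not found, Auf1, is another name of Hnrnpd, which is among the 12. Zfp36, or tristetraprolin, which binds AU-rich elements of Tnf mRNA, fell from 202 ± 12.9 FPKM to 127 ± 15.7, 89.0 ± 14.8 and 80.6 ± 9.7 (adjusted p = 0.000538, 3.59e-06 and 1.67e-06). Its relative Zfp36l1 fell from 238 ± 29.6 to 182 ± 19.1, 93.6 ± 5.7 and 97.8 ± 7.2 FPKM (adjusted p = 0.00722, 4.5e-07 and 6.03e-07). Khsrp, another decay factor, rose from 50.7 ± 3.2 to 66.8 ± 4.8, 59.5 ± 3.4 and 70.7 ± 5.6 FPKM (adjusted p = 0.00137, 0.0267 and 0.00024).

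Among surface markers used for regulatory and B-1 cells, 15 of 16 genes were tested, and 5, 4 and 4 rose while 5, 7 and 8 fell, at medians of -0.06, -0.20 and -0.43. Cd24a rose from 179 ± 3.8 FPKM to 250.2 ± 7.1, 643 ± 95.2 and 573 ± 118 (adjusted p = 0.00626, 2.07e-07 and 4.29e-07). Fcer2a, or CD23, fell from 325 ± 40.3 to 214 ± 14.0, 44.2 ± 2.9 and 39.4 ± 12.3 FPKM (adjusted p = 0.016, 1.23e-07 and 7.31e-08), and the complement receptor Cr2 fell from 47.4 ± 1.7 to 33.5 ± 1.6, 24.4 ± 1.8 and 23.5 ± 2.6 (adjusted p = 0.000392, 1.48e-06 and 1e-06). These genes are listed as known markers, and bulk RNA does not say whether the cells that carry them are those that hold the Il10 transcript.

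Most other cytokines were hardly measured in these cells: 14 of the 44 listed were tested, of which 5, 5 and 6 rose and 5, 6 and 7 fell, at medians of -0.01, 0.04 and -0.04. Mif, the macrophage migration inhibitory factor, rose from 79.3 ± 6.5 FPKM to 292 ± 23.6, 556 ± 104 and 672 ± 89.1 (adjusted p = 1.35e-06, 1.01e-08 and 5e-09). Il16, a chemoattractant precursor, fell from 102 ± 11.4 to 73.2 ± 2.5, 73.0 ± 9.2 and 64.2 ± 1.3 FPKM (adjusted p = 0.00107, 0.000687 and 5.34e-05). Flt3l, a growth factor of dendritic cells, fell with CpG-A (12.8 ± 0.6) and CpG-C (15.01 ± 2.1) from 18.9 ± 1.6 FPKM (adjusted p = 0.000576 and 0.0114) and did not pass with CpG-B (18.6 ± 1.2, adjusted p = 0.826).

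Genes with the most similar course over the 12 libraries were sought among 6954 known genes with at least 10 FPKM in their highest group, by the root-mean-square difference of centred log2(FPKM + 1). For Il10 they were the kinase gene Pim2 (0.27, against 1.67 for Il10's own spread), Tmed6 (0.27) and the properdin gene Cfp (0.29). For Il6 they were Knstrn (0.14) and the cyclin D2 gene Ccnd2 (0.15), and for Spp1 Lynx1 (0.45), the desaturase gene Fads2 (0.45) and BC021614 (0.49). The 9 genes themselves were not candidates. Tnf was closest to Cldnd1 (0.23), Plxnc1 (0.27) and Hsph1 (0.28), Ebi3 to Pld4 (0.28), Smim3 (0.29) and Wnt10a (0.30), and Lta to the urokinase receptor gene Plaur (0.36), Adgre1 (0.38) and Plk3 (0.44). Ltb lay closest to Cd1d1 (0.12), Abtb1 (0.13) and Rogdi (0.14), Il12a to Cib1 (0.08), Coro1b (0.09) and Pkig (0.10), and Tgfb1 to Tcf25 (0.04), Atxn2l (0.05) and Shkbp1 (0.06). Between members, Tnf and Ebi3 differed by 0.54, Il10 and Il6 by 0.79, and Il10 and Lta by 2.75, the widest gap of any pair. These values describe likeness of level over libraries that share treatment and depth.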

How the data were processed

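RNA of 12 libraries of splenic B cells was measured, 3 in each of 4 groups, grouped by their treatment labels. The authors deposited FPKM rounded to 2 decimals, per the file headers, with their own log2 ratios between groups and the p-value and q-value of each. Build mm10 and the tools Bowtie2 2.2.5, GATK, HISAT, RSEM 1.2.8 and StringTie come, without roles, from the submitters' processing notes, and the sources used here do not name the test behind the authors' log2 ratios.

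The members and lists were chosen with earlier results of these data known. FPKM are not counts, so log2(FPKM + 1) was fitted with limma 3.58.1 in R 4.3.3 (trend method, 1 fit of 12 libraries, 8 residual degrees of freedom), over 15853 features above 1 FPKM in at least 3 libraries, after 2 of 28021 entries that named no gene were left out. Errors are SD for levels and SE for log2 changes. The fit was tested on simulated data. All 9 members are named; subunit partners and receptors could be named by choice, and some are; of other lists the 3 genes of highest mean FPKM are named, plus Prdm1 and Zfp36, and the 3 genes most like each member, of which 1 is not reported here. List symbols absent from the table (Auf1, Il3, Il9, Il17a, Ighm, Ighd, Trac, S100a8 and Hbb-bt) were not analysed here. Of these, Auf1 is another name of Hnrnpd, which was measured. Depth was estimated from low values of genes with 1 transcript, whose effective length was taken as 100 bases below the full length: 71.3% to 95.2% of these values lay no more than 0.2 from whole fragments (40% would by chance), and no counts were recovered. Motifs were searched with Python 3.11.15 in RefSeq promoters of GRCm38.p6.

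Same-numbered CpG-B and CpG-C libraries deviated together from their group means across genes, with correlations of 0.71, 0.63 and 0.79, so the replicate numbers were taken to pair these 2 groups. Libraries 1 and 2 were not told apart by this check, since those of unlike number correlated at 0.66 and 0.67. Same-numbered control and CpG-A libraries correlated at 0.43, -0.18 and 0.42 and were not taken as paired. Alternatives were another pseudocount and filters, known genes alone, 3 scalings, the groups compared alone, library weights, a replicate block, and omission of libraries.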

Additional observations from a re-analysis of the deposited data

How the results depend on the processing

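Of 54 log2 changes (9 genes in 6 comparisons), 34 kept their direction and their side of the threshold under every alternative run, and of 1245 single values 1158 did so, 49 lost a call, 19 gained one and 19 changed sign. The changes of sign concerned values near 0. Under TPM scaling Tnf came to -0.051 in CpG-B against control, and Tgfb1 to -0.12 in CpG-B and -0.058 in CpG-C against CpG-A. Without library 3 of both CpG-B and CpG-C Tnf came to -0.0011 and Tgfb1 to 0.0085 in CpG-B against control, Tgfb1 to 0.026 in CpG-C against control, and Lta to 0.10 in CpG-C against CpG-B. With library weights, Lta came to 0.079 and Tgfb1 to -0.026 in CpG-C against CpG-B. With 1 library left out at a time, Tnf ranged from -0.0011 to 0.35 in CpG-B against control. Tgfb1 ranged from -0.18 to 0.0085 in CpG-B and from -0.16 to 0.026 in CpG-C against control, from -0.031 to 0.12 in CpG-B and from -0.0088 to 0.13 in CpG-C against CpG-A, and from -0.059 to 0.094 in CpG-C against CpG-B, where Lta ranged from -0.20 to 0.065. The cause was not tested. Library weights called 2 members lower in CpG-A against control, and 2 higher and 2 lower in CpG-C against CpG-B, where leaving out library 3 of both CpG-B and CpG-C called 1 higher. Of all 15853 features, these weights called 8075 lower in CpG-A against control. Omitting single libraries moved the number of members called higher to 5 to 7 in CpG-A and 4 to 6 in CpG-C against control and 3 to 4 in CpG-B against CpG-A, and the number lower to 2 to 4 in CpG-B and 3 to 4 in CpG-C against CpG-A. The replicate block changed no member's call in CpG-C against CpG-B, in the fit of all libraries or, an alternative chosen after seeing the data, of those 2 groups alone. It called Spp1 in CpG-B against CpG-A (0.90, adjusted p = 0.0381 in limma) and changed no other call. Across all features, CpG-C against CpG-B gave 29 calls, 18 higher and 12 lower with the block, 0 with the 2 groups alone (973 at an unadjusted p under 0.05, and 0 with 2613 so when these were also blocked), and 929 higher and 1158 lower with library weights. The share of higher among all calls was 29.4% in CpG-B and 28.1% in CpG-C against CpG-A, and 44.4% and 42.2% by median of ratios, 44.4% and 42.9% by upper quartile, and 15.1% and 15.3% by TPM, which also moved it from 33.1% to 21.8% in CpG-B and from 33.8% to 23.5% in CpG-C against control and from 62.1% to 78.3% in CpG-C against CpG-B. The median log2 change of all features moved from -0.16 to -0.26, -0.27 and -0.30 under these 3 scalings in CpG-A against control, and under TPM from -0.31 to -0.61 in CpG-B and -0.57 in CpG-C against control and from -0.23 to -0.41 in CpG-B and from -0.22 to -0.35 in CpG-C against CpG-A. Il6 was not tested above 5 FPKM. Depth limits the control values of Il6, which rest on a few fragments.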

Other observations

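Tgfb3, a second TGF-β gene and one chosen after its values were seen, fell with every class while Tgfb1 did not pass. Tgfb3 stood at 28.1 ± 0.7 FPKM in the control, 11.7 ± 1.3 in CpG-A, 0.75 ± 0.06 in CpG-B and 0.58 ± 0.06 in CpG-C (SD, n = 3). Its log2 changes on the log2(FPKM + 1) scale were -1.20, -4.06 and -4.20, with adjusted p = 2.18e-06, 6.93e-11 and 1.13e-10 in limma. The groups did not overlap, the smallest gap being between 0.68 FPKM in CpG-B and 0.65 in CpG-C, a comparison that did not pass.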
